A study of Mus musculus with 6 samples.

Results

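Hox genes encode homeodomain transcription factors that lie in 4 genomic clusters, Hoxa, Hoxb, Hoxc and Hoxd, and 38 of them were followed here among the 55450 genes of a single-cell RNA-seq matrix of mouse aorta. The members were taken by gene symbol and not by their values. Along each cluster the genes are numbered by paralogue group from the 3′ end, and in the embryo low numbers are switched on first and furthest forward, while high numbers follow later and further back. Cells of a mature vessel keep part of this code, so that smooth muscle of the aortic arch, which stems from neural crest, differs in Hox genes from smooth muscle of the descending aorta, which stems from somites.

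The study set 3 aortic samples of genotype Best3FL/FL, titled as controls, against 3 of genotype Best3SMKO. Best3 is bestrophin 3, a member of a chloride channel family. The labels give no recombinase driver, age, sex, number of mice in a sample or stretch of aorta. The matrix pools 6 libraries, told apart only by a barcode suffix that no source used here ties to a sample, so the genotypes were not compared and the libraries are numbered 1 to 6 by suffix. Without that map the matrix was treated as 1 sample and no test was run, so each difference is given as a size, with the number of libraries that share its direction.

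After filtering, 50769 cells fell into 37 clusters, formed without Hox genes. Clusters were named from marker genes, and the comparisons rest on 12979 smooth muscle-like, 17031 fibroblast-like, 401 pericyte-like and 7982 endothelial-like cells. All 7 listed markers of its own type reached 10 counts per 1000000 (CPM) in each of these 4 classes. The pericyte-like class also held markers of smooth muscle, 30509 CPM in sum where the smooth muscle-like class had 47377 CPM, and of fibroblasts, 2359 CPM where that class had 692 CPM. Levels are unique molecular identifiers (UMIs), each standing for 1 captured RNA molecule, given as CPM of a class or cluster. UMI counts carry no correction for gene length, so an order among genes is an order of UMIs recovered. Libraries held 51813179 to 96144873 UMIs, and 11 to 40 barcodes were shared by each of the 15 pairs of libraries.

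Hox RNA was found in every vessel wall class above the level of blood cells. The sum of the 38 members was 421 CPM in smooth muscle-like cells (exact Poisson 95% interval 418 to 425), 391 CPM in fibroblast-like cells (387 to 395), 606 CPM in pericyte-like cells (578 to 636) and 587 CPM in endothelial-like cells (580 to 594). These intervals cover counting error only. Across the 6 libraries the sum lay between 367 and 463 CPM with a median of 431 in smooth muscle-like cells, and between 323 and 452 CPM with a median of 413 in fibroblast-like cells. It lay between 553 and 661 CPM with a median of 617 in pericyte-like cells, and between 517 and 618 CPM with a median of 589 in endothelial-like cells. The libraries of the first 2 classes overlapped each other, and every library of the last 2 classes stood above every library of the first 2.

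Cells of blood origin served as the background, although free RNA and RNA of their own cannot be told apart in them. The same sum was 45.3 CPM in macrophage-like cells, 39.1 CPM in T cell-like cells and 24.4 CPM in B cell-like cells, and no single member passed 7.29 CPM there. With every cell thinned to 3000 UMIs, 67.1% of 12006 smooth muscle-like cells held a Hox UMI (exact Clopper-Pearson 95% interval 66.2% to 67.9%), as did 63.4% of fibroblast-like, 82.7% of pericyte-like and 77.2% of endothelial-like cells. The shares before thinning were 89.1%, 76.9%, 86.5% and 81.2%, at median depths of 10627, 6442, 6145 and 4532.5 UMIs a cell. Thinning left out 973, 3535, 106 and 2490 shallower cells. At the same depth 11.2% of macrophage-like, 11.3% of T cell-like and 4.11% of B cell-like cells held a Hox UMI, at unthinned medians of 5136, 3329 and 2923 UMIs.

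A common core was shared by all 4 classes. Hoxa5, which patterns the neck and upper thorax and is needed for lung development, stood at 56.2, 62.4, 50.4 and 92.6 CPM in smooth muscle-like, fibroblast-like, pericyte-like and endothelial-like cells. Across the libraries Hoxa5 ran from 40.3 to 73.2 CPM (median 52.3), 42.9 to 76.5 (median 61.9), 36.9 to 59.8 (median 54.99) and 78.1 to 112 CPM (median 92.2), so the endothelial-like libraries stood above all others. Hoxa7, a thoracic gene, stood at 64.6, 48.8, 68.8 and 76.9 CPM in the same order. Its libraries ran from 49.2 to 79.4 CPM, 35.3 to 62.2 CPM, 59.4 to 92.3 CPM and 61.9 to 87.6 CPM, with overlap between each pair of neighbours in level. Hoxa3, which acts in pharyngeal arch derivatives, kept to 21.2 to 26.5 CPM over the 4 classes. Hoxb4, a neck gene, was at 37.3, 35.5, 18.7 and 58.3 CPM, and its endothelial-like libraries, from 51.6 to 66.5 CPM, lay above all libraries of the other classes, the highest of which was at 42.5 CPM. None of Hoxa3, Hoxa5 and Hoxa7 differed 2-fold between any pair of the classes. At the other end, Hoxb13 and Hoxd12, the most posterior kind, gave no UMI in any of the 4, which in the 135698577 UMIs of the smooth muscle-like class allows a level of up to 0.0221 CPM each by a floor of 3 counts. Hoxc12, Hoxc13, Hoxd13, Hoxb1, Hoxd1 and Hoxd3 stayed below 1 CPM in all 4 classes. Hoxa13, Hoxd11, Hoxd10, Hoxc11, Hoxa6, Hoxa11, Hoxa2, Hoxa4 and Hoxc5 peaked between 1.80 and 7.56 CPM. Hoxc4 peaked at 15.1 CPM in pericyte-like cells and Hoxb6 at 18.3 CPM in endothelial-like cells. At least 1 CPM was reached by 23 members in smooth muscle-like, 25 in fibroblast-like, 30 in pericyte-like and 20 in endothelial-like cells.

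**Figure D1:**
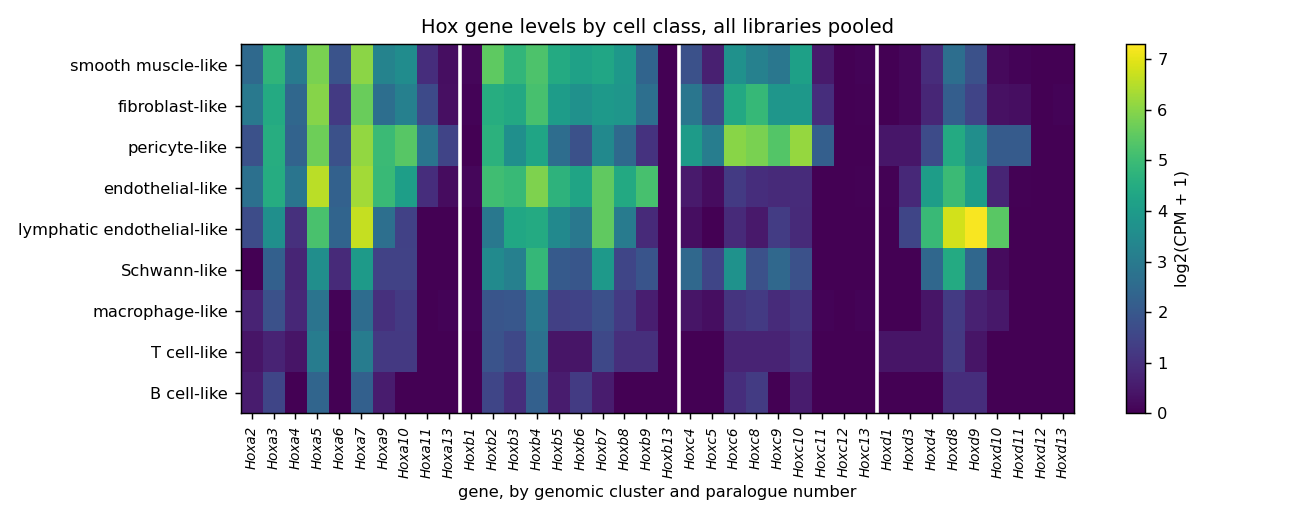
Level of each of the 38 Hox genes, as log2 of CPM plus 1 by colour, in 9 cell classes with all libraries pooled; genes are ordered by genomic cluster and paralogue number. Hoxa5 and Hoxa7 are bright in all vessel wall classes, the Hoxc block is bright in pericyte-like and near the blood cell level in endothelial-like cells, and Hoxd8, Hoxd9 and Hoxd10 are brightest in lymphatic endothelial-like cells.

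The classes differed in which genomic cluster gave their Hox UMIs. Hoxc genes made 42.2% of the Hox UMIs of pericyte-like cells (36.8% in the lowest library, with a median of 41.9%), 21.8% of those of fibroblast-like cells (18.1% to 24.6%), 11.2% of those of smooth muscle-like cells (6.92% to 13.9%) and 0.793% of those of endothelial-like cells (0.533% to 1.09%), or 1.64% with doublets kept. The ranges of the 4 classes did not overlap. Hoxb genes ran in another order, with 12.95% in pericyte-like, 35.4% in fibroblast-like, 43.5% in smooth muscle-like and 45.1% in endothelial-like cells. Hoxd genes gave 10.8% in endothelial-like cells and 6.83% in pericyte-like cells, but 2.13% in smooth muscle-like and 1.72% in fibroblast-like cells. The Hoxa share was the steadiest, from 38.0% to 43.3%.

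Sorted by paralogue group, pericyte-like cells carried the most posterior code of the 4 classes. Groups 9 to 13, which pattern the lower trunk and limbs, gave 35.1% of their Hox UMIs, with a library range of 21.1% to 44.2%. The share was 17.1% in endothelial-like cells (15.7% to 17.7%), 13.1% in fibroblast-like cells (10.2% to 18.9%) and 12.1% in smooth muscle-like cells (6.68% to 16.4%). The last 3 ranges overlapped. Hoxb9, a thoracic gene counted in these groups, gave 34.8 of their 100 CPM in endothelial-like cells and 1.08 of 212 CPM in pericyte-like cells. In fibroblast-like and smooth muscle-like cells it gave 5.32 of 51.3 and 4.10 of 50.9 CPM. Groups 1 to 3, the hindbrain and pharyngeal end of the code, gave 24.3% in smooth muscle-like, 18.1% in fibroblast-like, 15.4% in endothelial-like and 10.2% in pericyte-like cells.

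**Figure D2:**
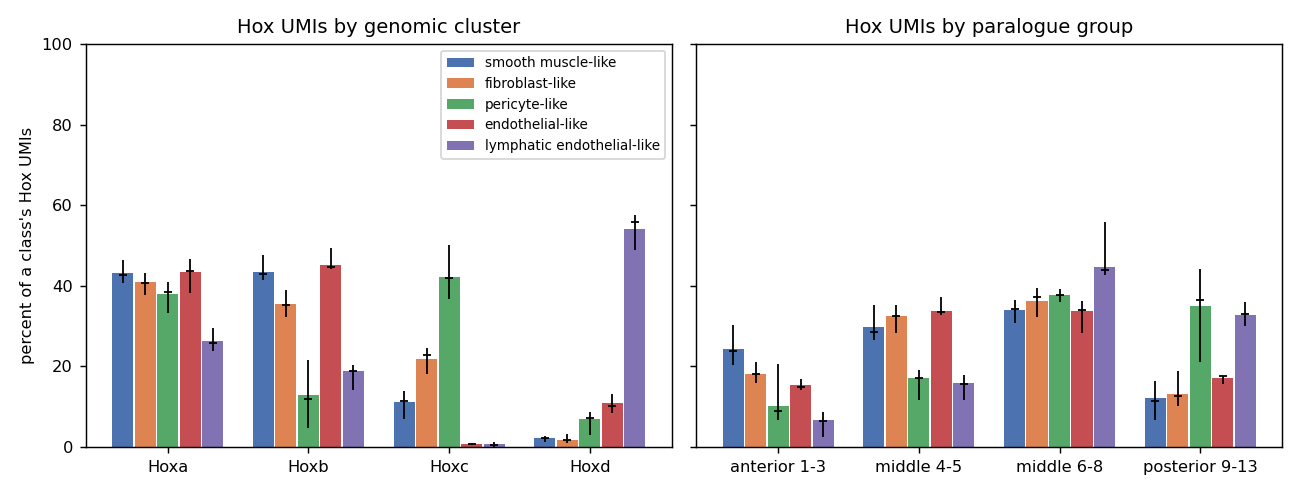
Percent of each class's Hox UMIs that came from each genomic cluster (left) and each paralogue group (right); bars are pooled cells, ticks the median and lines the lowest to highest of 6 libraries. The Hoxc share runs from 0.793% in endothelial-like to 42.2% in pericyte-like cells, and lymphatic endothelial-like cells take 54.2% of their Hox UMIs from Hoxd.

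For single genes a size rule was applied to all genes alike: at least 10 CPM on either side, a ratio of at least 2 with 1 CPM added to both, and the same direction in every library with 20 cells of both groups. Between smooth muscle-like and fibroblast-like cells, the pair with the fewest members called, 15 members reached the level, 0 passed as higher and 1 as lower in smooth muscle-like cells, against 10.1% higher and 15.6% lower of 9464 genes. The median log2 ratio was 0.31 over these members and -0.05 over those genes. The gene that passed was Hoxc8, a mid-thoracic gene, at 8.25 CPM in smooth muscle-like and 28.6 CPM in fibroblast-like cells. It was 3.20-fold lower and lower in 6 of 6 libraries. In smooth muscle-like cells its libraries ran from 6.46 to 12.3 CPM and in fibroblast-like cells from 19.6 to 37.9 CPM, without overlap.

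Against pericyte-like cells, smooth muscle-like cells had less of 4 Hoxc genes, Hoxa9, Hoxa10 and Hoxd8, and more of Hoxb3, Hoxb5, Hoxb6 and Hoxb8. Of 19 members at the level, 4 passed as higher in smooth muscle-like cells and 7 as lower, against 5.19% and 10.5% of 9582 genes. Their median log2 ratio was -0.09, and that of all genes tested was -0.15. Hoxc8 was 6.14-fold lower in smooth muscle-like cells, at 8.25 against 55.8 CPM, Hoxc9 was 5.56-fold lower, at 6.37 against 40.0 CPM, and Hoxc6 was 4.94-fold lower, at 12.03 against 63.4 CPM. Hoxc10, a lumbar gene that also marks posterior fat and hindlimb, was 3.99-fold lower. Its libraries spanned 8.23 to 23.8 CPM in smooth muscle-like cells and 36.6 to 123.0 CPM in pericyte-like cells. On the other side Hoxb6 was 5.18-fold higher in smooth muscle-like cells, at 17.2 against 2.52 CPM, Hoxb5 3.62-fold higher, Hoxb8 2.61-fold higher and Hoxb3 2.24-fold higher. With 5 CPM added, 2 members passed as higher. The pericyte-like values rest on few molecules: 7 UMIs for Hoxb6 and 195 for Hoxc10.

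Fibroblast-like cells differed from pericyte-like cells along many of the same genes, as 3 of 19 members passed as higher and 6 as lower, against 8.89% and 9.68% of 9805 genes. Their median log2 ratio was -0.49, and that of all genes tested was -0.11. Hoxa9, which is also a regulator of blood progenitors, was 5.09-fold lower in fibroblast-like cells, at 5.21 against 30.6 CPM. Hoxd8 was 4.80-fold lower, Hoxc10 4.76-fold lower, at 14.0 against 70.2 CPM, and Hoxa10 4.71-fold lower, at 8.01 against 41.4 CPM. Hoxb6, Hoxb5 and Hoxb8 were the 3 on the higher side, by 3.68-fold, 2.74-fold and 2.53-fold. Hoxc8, at 28.6 against 55.8 CPM, and Hoxb3, at 20.1 against 11.5 CPM, did not pass here. This comparison and the one before it share the pericyte-like cells.

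Endothelial-like cells held little Hoxc RNA and more Hoxb9 and Hoxd4 than each of the other 3 classes. Hoxd8 and Hoxd9 were higher in them than in smooth muscle-like and fibroblast-like cells, but did not pass against pericyte-like cells. Against them, 2 of 18 members passed as higher in smooth muscle-like cells and 6 as lower, beside 12.4% and 18.6% of 9730 genes. For fibroblast-like cells the counts were 4 higher and 6 lower of 20, beside 13.2% and 13.6% of 9827 genes. For pericyte-like cells they were 5 higher and 8 lower of 21, beside 13.6% and 13.5% of 10146 genes. The median log2 ratios of the members were -0.55, -0.62 and -0.46, those of all genes tested -0.14, -0.11 and 0.03. These 3 comparisons share the endothelial-like cells.

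Hoxc10 stood at 0.879 CPM in endothelial-like cells, which is below its 1.19 CPM in macrophage-like cells. Smooth muscle-like cells had 9.49-fold more of it, fibroblast-like cells 7.97-fold and pericyte-like cells 37.9-fold more, in 6 of 6 libraries each. Hoxc8 was 15.2-fold higher in fibroblast-like and 29.2-fold higher in pericyte-like cells than in endothelial-like cells, where it was at 0.949 CPM. Summed over the 9 Hoxc members, endothelial-like cells gave 4.65 CPM, with a library range of 2.76 to 6.51. At 3000 UMIs a cell, a Hoxc UMI was found in 1.26% of endothelial-like cells, which is below the 1.34% of macrophage-like cells, and in 11.1% of smooth muscle-like, 19.6% of fibroblast-like and 50.8% of pericyte-like cells.

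Hoxb9 and Hoxd4 went the other way. Hoxb9, a thoracic gene, was at 34.8 CPM in endothelial-like cells (32.3 to 39.3 CPM over the libraries), 7.02-fold above smooth muscle-like and 5.66-fold above fibroblast-like cells. Pericyte-like cells held 3 UMIs of it, a ratio of 0.0310 to endothelial-like cells (0.00640 to 0.0909 by counting error). Hoxd4, a hindbrain and neck gene, was at 15.8 CPM there, while smooth muscle-like cells had 0.914 CPM and fibroblast-like cells 0.718 CPM. Its exons overlap those of Hoxd3 on the same strand in the GENCODE annotation of GRCm38. Hoxd8 was at 30.6 CPM in endothelial-like, 5.26 CPM in smooth muscle-like and 3.56 CPM in fibroblast-like cells. Hoxd9 was at 15.7 CPM, against 2.51 and 1.80 CPM. Hoxb7 was at 45.2 CPM in endothelial-like cells, 18.9 CPM in smooth muscle-like and 14.3 CPM in fibroblast-like cells.

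Lymphatic endothelial-like cells, 806 cells led by Ccl21a, Lyve1 and Prox1, shifted this Hoxd pattern further. The comparison was chosen after their values were seen. Of 17 members at the level, 3 passed as higher than in the other endothelial-like cells and 9 as lower, against 7.12% and 9.73% of 9516 genes. With doublets kept, the class held 1549 cells and 5 members passed as lower. Hoxd genes made 54.2% of their Hox UMIs, with 48.9% to 57.7% over the libraries. Hoxd9 stood at 149.7 CPM, with libraries from 107 to 165 CPM, against 15.7 CPM in endothelial-like cells, where the libraries ran from 10.8 to 22.0 CPM. Hoxd8, described downstream of Prox1 in lymphatic endothelium, was at 110.9 against 30.6 CPM. Hoxd10, a limb and lumbar gene, was at 41.9 against 0.694 CPM, which is 25.3-fold higher. At 3000 UMIs a cell, 60.8% of lymphatic endothelial-like and 15.9% of endothelial-like cells held a Hoxd UMI. The groups did not overlap for any of the 3 genes. On the lower side Hoxb9 was at 0.826 CPM and 19.6-fold lower, Hoxa10 at 1.65 CPM and 6.46-fold lower, Hoxa9 4.87-fold lower and Hoxb2 4.39-fold lower. The median log2 ratio was -1.24 over the members and 0.03 over all genes tested. A further 725 cells led by Nts, Mmrn1 and Prox1, cluster 25, stayed unnamed because the lymphatic list led their top genes while their best score was endothelial. They held Hoxd9 at 122 CPM, Hoxd8 at 75.1 CPM and Hoxd10 at 24.8 CPM.

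These 3 neighbouring genes lie on chromosome 2 (build GRCm38), on the plus strand, in the order Hoxd10, Hoxd9, Hoxd8. Hoxd8 spans 74704615 to 74707933, Hoxd9 spans 74697727 to 74700208 and Hoxd10 spans 74691924 to 74695105. The sequences before their starts are shown because all 3 genes were higher in lymphatic endothelial-like than in endothelial-like cells. They come from RefSeq (GRCm38.p6), run 5′ to 3′ on the plus strand, end before the annotated gene (the Hoxd9 window is cut to 214 bases for that), and carry in capitals any CCAAT box, read on either strand.
Hoxd8, chr2:74704365-74704614: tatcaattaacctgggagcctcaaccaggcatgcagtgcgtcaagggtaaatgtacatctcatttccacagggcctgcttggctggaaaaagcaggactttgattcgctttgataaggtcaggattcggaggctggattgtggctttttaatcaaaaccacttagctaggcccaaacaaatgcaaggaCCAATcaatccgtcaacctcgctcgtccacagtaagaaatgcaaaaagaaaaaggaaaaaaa
Hoxd9, chr2:74697513-74697726: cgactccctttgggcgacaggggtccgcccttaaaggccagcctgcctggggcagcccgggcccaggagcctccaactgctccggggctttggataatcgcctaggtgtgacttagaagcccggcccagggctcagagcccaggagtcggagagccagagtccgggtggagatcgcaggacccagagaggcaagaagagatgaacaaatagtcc
Hoxd10, chr2:74691641-74691890: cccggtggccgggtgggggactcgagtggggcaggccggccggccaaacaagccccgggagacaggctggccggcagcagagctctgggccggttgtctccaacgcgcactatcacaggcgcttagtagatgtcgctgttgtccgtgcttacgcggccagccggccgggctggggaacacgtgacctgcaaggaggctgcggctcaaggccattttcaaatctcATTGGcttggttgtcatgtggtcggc
Windows of 250 bases before the start were listed for 22 of the 38 members, 24 windows in all. On either strand CCAAT was in 14 of these 24, and in 33.8% of all 32851 windows; TATAAA was in 4 and 12.4%, the HOX-PBX core TGATNNAT in 4 and 7.68%, and TAATTA in 2 and 4.84%. CCAAT was found in the windows of Hoxd8 and Hoxd10, and none of the 4 motifs in that of Hoxd9. A match describes letters and is no evidence of binding.

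Within smooth muscle-like cells cluster 3 had the largest posterior share, followed by cluster 4. Cluster 3, with 1827 cells led by Rgs5, took 42.2% of its Hox UMIs from groups 9 to 13, with 35.8% to 45.9% over the libraries. Clusters 0 and 1, which held the most cells, took a median of 3.18% and 3.67% over the libraries. Of 17 members, 7 passed as higher in cluster 3 than in the other smooth muscle-like cells and 7 as lower, against 0.681% and 0.927% of 8522 genes. Their median log2 ratio was -0.44, and that of all genes tested was -0.04.

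Hoxc10 stood at 97.5, 79.2, 71.98, 80.7, 65.9 and 78.0 CPM in cluster 3 of libraries 1 to 6. In the other smooth muscle-like cells of those libraries it stood at 5.15, 7.12, 4.24, 10.5, 6.70 and 3.74 CPM. The 2 sets of libraries did not overlap. Hoxa10 was at 46.1 CPM in cluster 3 and 3.97 CPM elsewhere, Hoxa9 at 33.3 and 3.90 CPM, and Hoxc9 at 24.1 and 3.01 CPM. Hoxb genes were lower in the same cells, with Hoxb8 at 3.29 against 15.8 CPM, Hoxb5 at 5.79 against 23.7 CPM, Hoxb2 at 15.2 against 49.2 CPM and Hoxb3 at 9.58 against 30.4 CPM. Hoxc10 exons overlap those of Hoxc5, which itself reached at most 7.56 CPM in the 4 classes. Hoxa5 and Hoxa7 did not pass, and their libraries in the 2 sets overlapped.

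Cluster 3 kept the markers of smooth muscle, which summed to 44228 CPM there. The pericyte list summed to 8487 CPM, more than the 3844 CPM of the pericyte-like class, and Rgs5 alone made 8232 CPM of it. Vtn, another gene of the list, was at 0.0926 CPM in cluster 3 and 283 CPM in the pericyte-like class. Without Rgs5 the list was at 255 CPM in cluster 3, 269 CPM in the other smooth muscle-like cells and 1559.9 CPM in the pericyte-like class. The part of these markers in the Hox values was not tested.

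**Figure D3:**
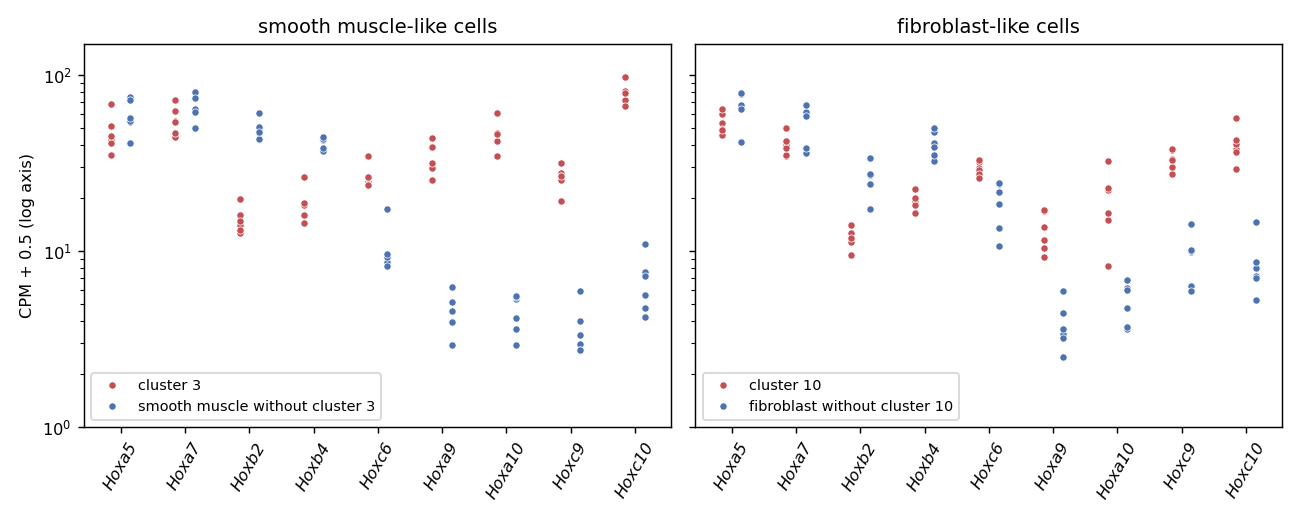
Level of 9 Hox genes as CPM plus 0.5 on a log axis, with 1 point a library; the left panel sets cluster 3 (red) against the other smooth muscle-like cells (blue), the right panel cluster 10 (red) against the other fibroblast-like cells (blue). Red points lie above all blue points for Hoxa9, Hoxa10, Hoxc9 and Hoxc10, and below all blue points for Hoxb2 and Hoxb4, in both panels.

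Cluster 4, with 1538 cells led by Pln, Notch3 and Olfr558, was also higher in Hoxc genes. In it 5 of 17 members passed as higher and 1 as lower, against 5.75% and 3.42% of 8819 genes. Hoxc10 was at 34.8 against 14.6 CPM, Hoxc6 at 27.6 against 10.1 CPM, Hoxc8 at 20.6 against 6.71 CPM and Hoxd8 at 15.6 against 3.98 CPM. Hoxb5, at 9.59 against 22.3 CPM, was the gene on the lower side, and without library 1 there were 2. The cluster also held Tbx2, a T-box repressor, at 113 against 6.69 CPM. Of the 7 pericyte markers 6 reached 10 CPM in cluster 4, where the other smooth muscle-like clusters had 3 or 4. The list summed to 2684 CPM, near the 2652 CPM of the whole smooth muscle-like class and the 2452 CPM of cluster 1. The part of these markers in the Hox values was not tested.

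At the anterior end stood cluster 5, with 634 cells led by Tnnt2 and Actg2. Library 1 gave 349 and library 2 gave 250 of its cells, and 3 libraries held 20 or more. Here 8 of 14 members passed as lower and 0 as higher, against 1.21% and 0.979% of 8682 genes. Groups 9 to 13 made 0.920% of its Hox UMIs and groups 1 to 3 made 52.8%. Hoxa7 was at 5.97 against 68.0 CPM and Hoxb7 at 1.59 against 19.9 CPM. Hoxc6 gave 1 UMI in cluster 5, a ratio of 0.0104 to the other smooth muscle-like cells (0.000263 to 0.0581 by counting error). Hoxb2, which acts in the hindbrain, stayed at 46.1 CPM. Of 7 outflow tract and anterior transcription factors tested there, 4 passed as higher and 0 as lower. Gata4 was at 13.4 against 0.179 CPM, Tbx20 at 42.4 against 5.54 CPM and Hand2, a gene of the heart and pharyngeal arches, at 68.5 against 9.10 CPM. The unnamed clusters 6 and 8, whose best-matching marker list was that of smooth muscle, were set against the smooth muscle-like class and passed as lower for 8 of 14 and 6 of 13 members, against 1.79% and 14.1% of genes. None passed as higher, against 4.59% and 6.99%. In cluster 6, with 492 cells, Hoxa7 was at 18.3 against 64.6 CPM and Hoxb8 at 1.34 against 13.8 CPM. The 77 cells of cluster 8 all came from library 5.

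Cluster 2, with 1846 cells, was lower in 6 of 14 members and higher in 0, against 1.17% and 0.376% of 8513 genes. Both core genes were among the 6: Hoxa5 was at 25.8 against 62.3 CPM and Hoxa7 at 29.5 against 71.7 CPM. Cluster 0 passed as lower for 4 of 15 members, Hoxa9, Hoxa10, Hoxc8 and Hoxc10, against 0.951% of 8520 genes, and as higher for 0, against 0.0939%. Without library 5 or without library 6, 1 member passed as higher there. Cluster 1 passed as lower for Hoxa10 and Hoxc10, of 13 members, against 1.74% of 8510 genes, and as higher for Hoxb8, at 25.5 against 11.1 CPM, against 0.0235%.

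The make-up of the smooth muscle-like class differed between libraries, and so did the class values. Cluster 3 held 3.07%, 4.68%, 25.3%, 1.81%, 17.4% and 23.5% of the class in libraries 1 to 6. The posterior share of Hox UMIs was 6.68%, 9.84%, 16.4%, 9.09%, 12.98% and 15.2% in the same libraries. With cluster 3 left out it was 5.001%, 7.03%, 4.80%, 8.43%, 5.67% and 4.48%. Without cluster 3 the class fell from 12.1% to 5.74% posterior and from 11.2% to 6.46% Hoxc, and its differences from fibroblast-like cells went to 1 member higher and 3 lower, those from endothelial-like cells to 0 higher. What set the number of cells in each cluster, a genotype, the stretch of aorta or the preparation, cannot be told apart here.

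**Figure D4:**
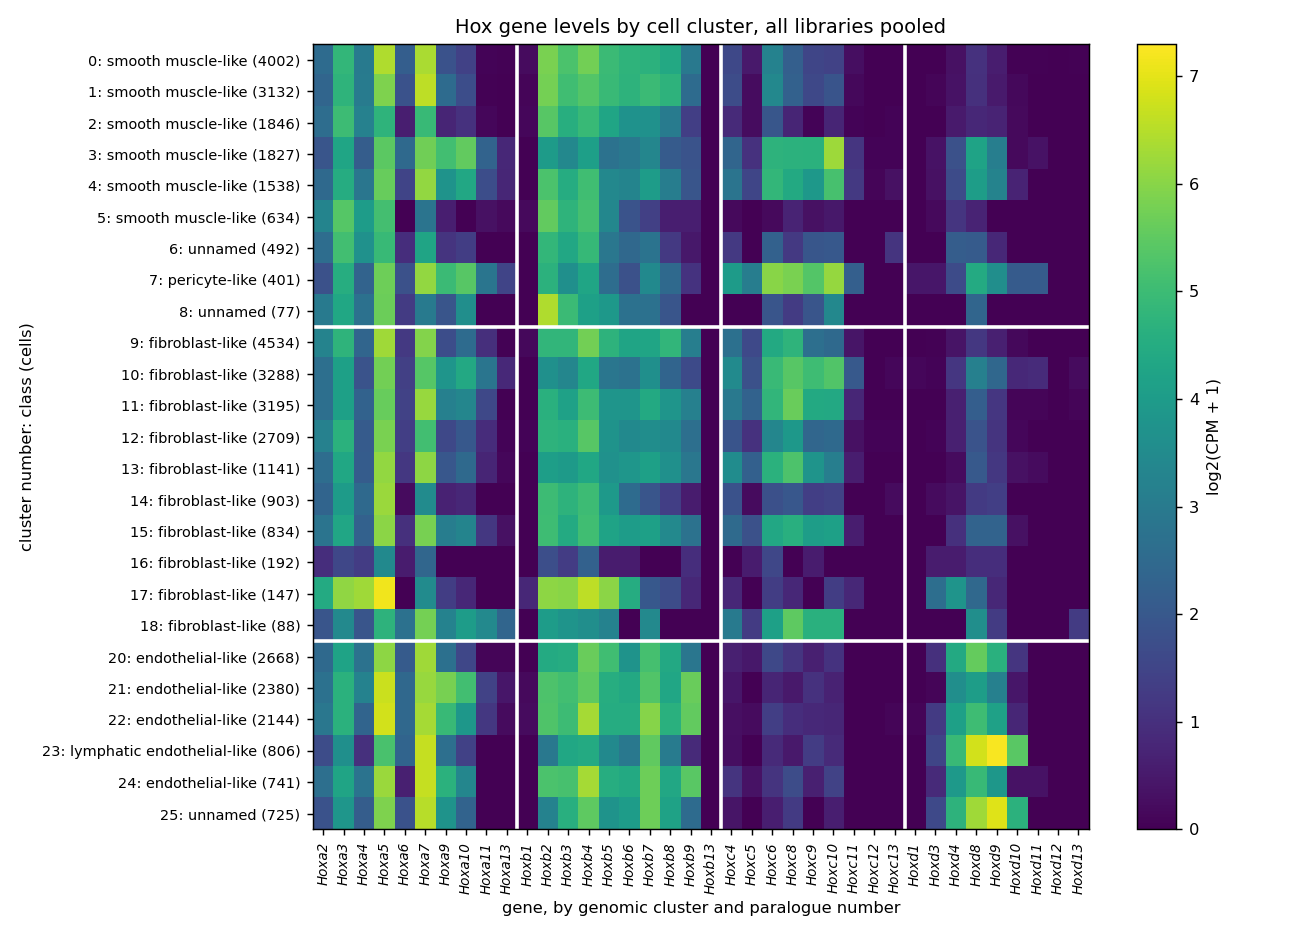
Level of each Hox gene, as log2 of CPM plus 1 by colour, in 25 clusters of mural (top), fibroblast-like (middle) and endothelial-like (bottom) cells; rows give the cluster number, class and number of cells. Clusters 3, 7 and 10 are bright from Hoxc6 to Hoxc10 and at Hoxa10, cluster 17 is bright from Hoxa3 to Hoxa5 and Hoxb2 to Hoxb5, and cluster 16 is dark throughout.

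Among fibroblast-like cells cluster 10 had the largest posterior share, followed by cluster 18. Cluster 10, with 3288 cells led by Clec3b, Penk and C7, took 30.4% of its Hox UMIs from groups 9 to 13, with 23.7% to 39.6% over the libraries. In it 4 of 17 members passed as higher and 6 as lower, against 1.33% and 2.36% of 9123 genes. Hoxc10 was at 38.8 against 7.47 CPM, Hoxc9 at 32.0 against 8.26 CPM, Hoxa10 at 20.1 against 4.83 CPM and Hoxa9 at 12.9 against 3.19 CPM. The 6 lower genes were Hoxb2, Hoxb3, Hoxb4, Hoxb5, Hoxb6 and Hoxb8, all of the Hoxb cluster. Hoxc6 and Hoxc8, which passed as higher in cluster 3, did not pass in cluster 10. Hoxd8 had passed in cluster 3 as well. In cluster 10 it was at 8.13 CPM, beside 3.56 CPM in the whole fibroblast-like class. That is under the level of 10 CPM, so the rule was not applied to it. Cluster 9, with 4534 cells led by Fmod, leaned the other way: Hoxb8 was at 27.04 against 7.82 CPM and Hoxb5 at 25.3 against 11.6 CPM, while Hoxc9 and Hoxc10 were lower. That is 2 of 14 members in each direction, against 0.785% and 2.52% of 9040 genes. Without library 2 or without library 3, 1 member of cluster 9 passed as higher. Cluster 12 passed as lower for Hoxc6, Hoxc8, Hoxc9 and Hoxc10, of 14 members, against 1.75% of 9098 genes, and as higher for 0, against 1.4%. Cluster 15, at a median of 2374.5 UMIs a cell, held smooth muscle markers at 19849 CPM beside fibroblast markers at 13884 CPM. Clusters 11, 13 and 15 passed for 0 members in either direction, against 0.621%, 4.04% and 3.61% of genes higher and 2.35%, 5.47% and 0.925% lower. Cluster 14, of which library 5 gave 894 of 903 cells, passed as higher for 0 and as lower for 8 of 14, against 5.8% and 3.57%. Cluster 18, with 88 cells, passed as higher for 0 and as lower for 5 of 16, against 6.53% and 10.8%. Its posterior share was 27.2%, with 24.4% and 31.3% in its 2 libraries with 20 cells.

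A small group of fibroblast-like cells took most of its Hox UMIs from groups 1 to 5. Cluster 17, with 147 cells led by Aox3 and Tfap2b, reached 20 cells in 3 libraries. Groups 4 and 5 made 58.7% of its Hox UMIs and groups 1 to 3 made 33.7%. The same groups made 53.6% and 32.2% in cluster 14. In cluster 17, of 17 members 8 passed as higher and 7 as lower, against 6.22% and 6.87% of 9557 genes. Hoxa4 was at 75.1 against 3.56 CPM, Hoxa5 at 140.4 against 61.5 CPM and Hoxb5 at 64.6 against 15.0 CPM. In the 3 libraries Hoxa4 ranged from 49.6 to 109 CPM, above the 2.33 to 4.51 CPM of the other fibroblast-like cells in all libraries. The 7 lower genes were Hoxa7, Hoxb7, Hoxb8, Hoxc6, Hoxc8, Hoxc9 and Hoxc10, with Hoxc9 at 0 UMIs. Of 9 retinoic acid and caudal regulators tested there, 2 passed as higher and 4 as lower. Aldh1a2, which makes retinoic acid, was at 51.0 against 7.302 CPM, while Aldh1a1 and Aldh1a3, enzymes of the same step, were at 37.5 against 202 CPM and 3.75 against 40.5 CPM. Cluster 16, with 192 cells that all came from library 2 and were led by Tbx20 and Prg4, held Hox RNA at 34.5 CPM in sum. That is within the range of the blood cell classes, and 14 of 14 members passed as lower there, against 7.22% of 9669 genes, in the single library that held it; 0 passed as higher, against 8.8%.

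Among endothelial-like cells clusters 20 and 21 differed in posterior genes in both directions. Hoxa9, Hoxa10 and Hoxb9 were higher in cluster 21, while Hoxd9 was at 23.9 CPM in cluster 20 and 8.03 CPM in cluster 21. The shares of members that passed in cluster 21 were near those of all genes. Cluster 21, with 2380 cells led by Ptprb, Cytl1 and Gja5, passed as higher for Hoxa9 and Hoxa10 and as lower for Hoxd8 and Hoxd9, of 16 members, against 7.02% and 9.09% of 9388 genes. Hoxa9 was at 54.4 against 18.1 CPM and Hoxa10 at 32.9 against 7.93 CPM. Cluster 20, with 2668 cells led by Gpihbp1 and Cd36, passed as lower for Hoxa9, Hoxa10 and Hoxb9, of 16 members, against 9.75% of 9419 genes. Hoxb9 was at 6.29 CPM there against 46.5 CPM in the other endothelial-like cells. None passed as higher, against 7.58%, and 1 did without library 1. Clusters 22 and 24, led by Selp and by Sema3g, passed for 0 members in either direction, against 4.09% and 2.88% of genes higher and 6.62% and 4.69% lower. Cluster 28, with 49 cells of library 5, passed as higher for 0 and as lower for 13 of 16, against 13.5% and 17.1%, on a total of 48 Hox UMIs. The highest posterior gene in cluster 20 was Hoxd9, at 23.9 CPM, and in cluster 21 it was Hoxa9, while Hoxc10 was at 1.12 and 0.634 CPM.

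Pairs of Hox genes were also read cell by cell. With smooth muscle-like cells thinned to 3000 UMIs, 21 members were each seen in at least 100 cells, which gives 210 pairs, 32 of them a Hoxb gene with a posterior gene of another genomic cluster. The number of cells with both genes was set against the number expected from each library's own shares, a comparison in which cells of 1 library and depth are pooled. Hoxa10 and Hoxc10 met in 60 cells where 15.1 were expected, a ratio of 3.98 (3.04 to 5.13 by the Poisson interval of the count) that was above 1 in 6 of 6 libraries. Hoxc9 and Hoxc10 gave 4.65, Hoxa9 and Hoxa10 gave 4.32, and Hoxc10 and Hoxd8, from different chromosomes, gave 5.31. For Hoxb8 and Hoxc10 the ratio was 0.256, with 5 cells against 19.5 expected, and for Hoxb5 and Hoxc10 it was 0.315. Of those 32 pairs 0 lay above 1, with a median of 0.465, and 27 of 28 pairs within Hoxb lay above 1, with a median of 1.34. Of 10 pairs in which both genes were posterior, 6 lay above 1, with a median of 3.09 and a range of 0.351 to 4.65. Hoxb9 is posterior too, and its pairs with posterior genes of other genomic clusters were among the 32.

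The same ratios were taken without cluster 3. Cluster 4 stayed in, with Hoxa10 at 19.9 and Hoxc10 at 34.8 CPM. Cluster 0 had 1.65 and 1.72 CPM of these genes, and cluster 1 had 2.29 and 2.72 CPM. The part that pooling such clusters has in these ratios was not tested. Without cluster 3, Hoxa10 and Hoxc10 met in 20 cells against 2.23 expected, above expectation in 5 of 6 libraries. Of the 32 Hoxb and posterior pairs 2 lay above 1, with a median of 0.687. Of these pairs 7 lay below 1 in 6 of 6 libraries, against 11 with cluster 3 included. In fibroblast-like cells the corresponding median was 0.470, with 3 of 32 pairs above 1. In endothelial-like cells it was 1.08 over 24 pairs, with 15 above 1.

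**Figure D5:**
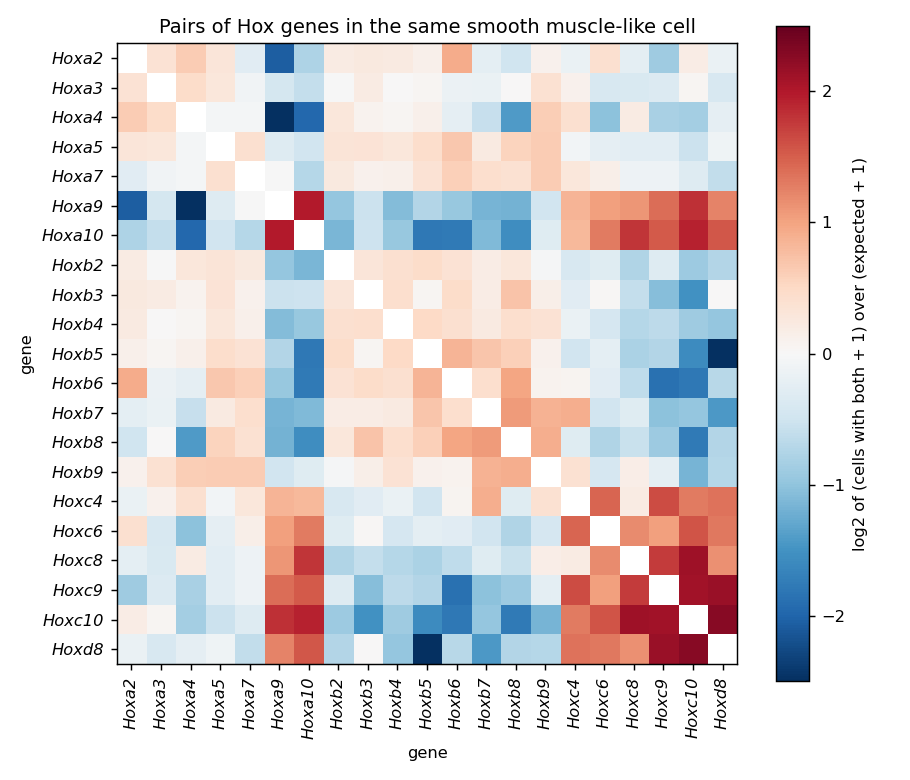
For each pair of 21 Hox genes, log2 of the smooth muscle-like cells with both genes (plus 1) over the number expected from each library's shares (plus 1); red is more often together, blue less often. Hoxa9, Hoxa10, the Hoxc genes and Hoxd8 form a red block, and the crossings of Hoxb4 to Hoxb8 with Hoxa9, Hoxa10, Hoxc9 and Hoxc10 are blue.

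Genes known to act with Hox proteins or to set Hox expression were read by the same size rule. The counts of each list are to be read against the shares of all genes given above for each pair. TALE cofactors, homeodomain partners that bind DNA beside Hox proteins, passed for 0 higher and 1 lower of 9 tested in smooth muscle-like against fibroblast-like cells and for 0 of 7 in either direction against pericyte-like cells. Meis1 and Meis3 passed as lower in endothelial-like cells against each of the other 3 classes, and Tgif1 as higher against smooth muscle-like and pericyte-like cells. Meis1 was at 10.8 CPM there and at 29.7, 48.0 and 42.1 CPM in smooth muscle-like, fibroblast-like and pericyte-like cells. Within endothelial-like cells Meis2 was at 196 CPM in cluster 21 and 9.32 CPM in cluster 20. Polycomb genes, which keep Hox genes silent, passed for 0 higher and 1 lower of 13, 0 of 12 and 0 higher and 2 lower of 12 in smooth muscle-like cells against fibroblast-like, pericyte-like and endothelial-like cells. Phc2 was at 48.8 against 124 CPM in the last. Of the Trithorax genes and demethylases that oppose them, 8 tested each time, Kdm6b passed as lower in smooth muscle-like cells, at 54.1 CPM against 180.4 CPM in fibroblast-like and 143 CPM in endothelial-like cells.

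For the retinoic acid and caudal list the counts were as follows, to be read against the shares of all genes given above for each pair. In smooth muscle-like cells 0 were higher and 6 lower of 7 tested against fibroblast-like cells, 0 and 1 of 6 against pericyte-like cells and 0 and 4 of 6 against endothelial-like cells. Aldh1a1, a retinal dehydrogenase, was at 5.88 CPM in smooth muscle-like, 199.9 CPM in fibroblast-like, 320.2 CPM in pericyte-like and 13.7 CPM in endothelial-like cells. Cyp26b1, which breaks retinoic acid down, was at 52.9 CPM in endothelial-like and 3.30 CPM in lymphatic endothelial-like cells. Transcription factors of trunk and limb passed for 1 higher and 4 lower of 7, 1 and 3 of 6, and 4 and 1 of 7 in the same 3 comparisons. Prrx1, a limb mesenchyme gene, was at 117 CPM in smooth muscle-like, 526 CPM in fibroblast-like, 805 CPM in pericyte-like and 13.7 CPM in endothelial-like cells. Outflow tract factors passed for 0 and 1 of 6, 1 and 2 of 7, and 2 and 4 of 8. Isl1, a marker of the second heart field, was at 32.6 CPM in endothelial-like cells and within these at 98.1 CPM in cluster 21 and 0.478 CPM in cluster 20.

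Noncoding genes inside the Hox clusters passed once in these pairs: pericyte-like cells had Hoxb3os at 16.2 CPM, fibroblast-like cells at 5.21 CPM. Hotairm1, at the anterior end of Hoxa, was at 30.8 CPM in endothelial-like and 3.72 CPM in lymphatic endothelial-like cells. The sources used here do not state strand, and reads of a gene and of its antisense partner may not be separable. Exons of 9 members, Hoxa2, Hoxa3, Hoxa9, Hoxc5, Hoxc10, Hoxd3, Hoxd4, Hoxd10 and Hoxd11, overlap another gene on the same strand, so that their counts may be split with it.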

How the data were processed

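Single-cell RNA-seq (10x Genomics) of 6 aortic samples was used. The deposited values are raw UMI counts per gene and barcode in 1 pooled matrix of 60871 barcodes and 55450 genes. Per the submitters' processing notes, bcl2fastq 5.01, Cell Ranger 3.1.0, Seurat 3.1.1 and GRCm38 were used, while the matrix header names Cell Ranger 6.1.2. No source used here gives the filters, strand setting or annotation.

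Barcodes with at least 500 genes and at most 20% mitochondrial UMIs were kept; Scrublet (scanpy 1.11.5) removed 3.02% to 11.3% of them as doublets per library. Leiden clustering (leidenalg 0.10.2, resolution 0.5, 2000 variable genes, 30 components, 20 neighbours) left out Hox, context list, mitochondrial and ribosomal genes. Mural, fibroblast and endothelial cells were clustered again, a step chosen after the first result was seen. Names needed 3 markers of a list, and 6 clusters (2747 cells) stayed unnamed. Counts were summed per cluster and library. The size rule was tested on simulated data. Members named in the text reached 20 CPM in a class or passed the rule with the largest ratios; context genes were those passing with the largest ratios, and Hoxa4, cluster 16 and cluster 25 were added after values were seen. Members and lists were chosen with earlier results of these data known. Intervals are 95% and cover counting error only. Other settings are given at the end.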

Additional observations from a re-analysis of the deposited data

Results flagged for a closer look

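Of 80 sets of 6 library values, 2 had 1 library apart from the rest by Dixon's criterion, which chance flags in about 1 of 20 sets. Hoxc9 in pericyte-like cells was at 76.9 CPM in library 1 and at 29.7 to 42.4 CPM in the other libraries. Hoxb2 in endothelial-like cells was at 36.8 CPM in library 5 and at 30.9 to 33.1 CPM in the others.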

How the results depend on the processing

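Of the counts, shares and levels that answer a comparison, 511 values under other settings stayed close to those reported and 42 moved. Of 64 called ratios of single members 8 were lost under some setting. Counts of members under other settings, here and above, stand without the share of all genes, which was not taken for them. With a higher minimum of genes a cell, or with 5 CPM added, 2 members were higher in smooth muscle-like than in pericyte-like cells. With doublets kept, the Hoxc share of endothelial-like cells was 1.64% and 5 members were lower in lymphatic endothelial-like cells, a class that then held 1549 cells in place of 806. With mitochondrial, ribosomal and the 50 most abundant genes left out of the total, the Hox sum was 647, 555, 870.2 and 820.3 CPM in smooth muscle-like, fibroblast-like, pericyte-like and endothelial-like cells. At 3-fold, 2 members were higher in smooth muscle-like and 1 in fibroblast-like than in pericyte-like cells, and 4 were lower in lymphatic endothelial-like cells. At 3-fold, 0 were higher in cluster 1, 3 lower in cluster 3, 1 higher and 0 lower in cluster 4, 1 higher and 1 lower in cluster 9, 1 lower in cluster 10, 1 lower in cluster 12, and 1 higher and 0 lower in cluster 21. With a level of 5 CPM, 2 members were lower in smooth muscle-like than in fibroblast-like cells and 4 higher than in endothelial-like cells. Thinned to 2000 UMIs, 54.5%, 50.6%, 69.4% and 65.4% of cells of the 4 classes held a Hox UMI. With cluster 3 left out, an alternative chosen after seeing the data, the smooth muscle-like class was at 5.74% posterior and 6.46% Hoxc, with 1 member higher and 3 lower than in fibroblast-like cells and 0 higher than in endothelial-like cells. Leaving out each library in turn gave 0 to 1 higher and 1 to 2 lower members in smooth muscle-like against fibroblast-like cells, 1 to 2 lower in cluster 4, 0 to 1 higher in cluster 20, 1 to 2 higher in cluster 9 and 0 to 1 higher in cluster 0. The 2 lower members against fibroblast-like cells appeared without library 3, 5 or 6, and the 1 higher without library 6. Apart from fewer genes or cells in these settings, the cause was not tested. Median-of-ratios size factors moved the median of all genes by 0.10 to 0.11 on the log2 scale in 4 comparisons and changed the direction of 0 members.

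No paired analysis was possible because no source used here ties a library to a numbered sample, so that sample numbers could not serve as a block. Directions were counted within libraries, with no test. Pericyte-like values rest on 401 cells, so that a member there can stand on a few UMIs. Differences between genotypes, and between stretches of the aorta, were not analysed here.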

Other observations

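Cells outside the vessel wall classes also held Hox RNA. A cluster of 2040 cells with markers of the adrenal cortex had a Hox sum of 604 CPM, with libraries from 535 to 705 CPM, at a median of 1323 UMIs a cell. Smooth muscle markers summed to 15062 CPM in it, and their part in the Hox values was not tested. Hoxa5 was at 124 CPM there, Hoxb4 at 64.4 CPM and Hoxc6 at 41.0 CPM. The 2 Schwann cell-like clusters, glia of peripheral nerves, had sums of 109.5 and 216 CPM. In them Hoxb4 was at 15.0 and 40.7 CPM and Hoxd8 at 14.7 and 26.7 CPM. An epithelial-like cluster of 423 cells, 319 of them from library 5, had a pooled sum of 305 CPM. Its 3 libraries with 20 cells ran from 183 to 894 CPM, with a median of 662 CPM. Hoxd8 was at 33.9 CPM there.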
